A study of Mus musculus with 16 samples.

Results

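The genes described here carry glucose through glycolysis, the pentose phosphate pathway and lactate release, together with Hif1a and Vegfa. They were chosen by name: 35 gene symbols were matched in the deposited count table and gave 36 gene entries of 55487, because the symbol Aldoa belongs to 2 Ensembl genes. All 36 entries passed the filter on low counts, which kept 24252 genes. RNA was sequenced from 16 mouse mammary organoid samples, small tissue-like cell assemblies kept in culture. They were of 4 genotypes, with 3 WT samples, 4 of the PIK3CA mutant, 4 of the HER2 mutant and 5 of the double mutant that carries both changes. The series title gives the alleles as HER2V777L, in a receptor tyrosine kinase, and PIK3CAH1047R, in the catalytic subunit of phosphoinositide 3-kinase. WT organoids are labelled as coming from normal breast and every mutant from breast tumor, so genotype and tissue source cannot be told apart in any comparison with WT. All samples shared one medium, with B27, N-acetyl-cysteine, epidermal growth factor at 50 ng/ml and media conditioned with Rspo1 and Noggin. Ages, and the promoter or Cre line behind each allele, are not given in the sources used here. Nothing in the labels says that samples of one genotype came from separate mice, so the p-values measure the spread between these samples, which may be partly technical.

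Glycolysis splits glucose into pyruvate, which is either reduced to lactate in the cytosol or oxidised in mitochondria through pyruvate dehydrogenase. The pentose phosphate pathway branches off at glucose 6-phosphate: its oxidative arm makes NADPH, and its non-oxidative arm exchanges sugars between ribose 5-phosphate and glycolytic intermediates. Many glycolytic genes, and Vegfa, are textbook targets of hypoxia-inducible factor, and phosphoinositide 3-kinase signalling is known to promote glucose uptake and hexokinase activity. In mammary epithelium glucose is also the precursor of lactose, the milk sugar.

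Total counts ranged from 45545182 to 64168308 per sample, and 3 counts in a sample corresponded to 0.0477 to 0.0668 CPM (counts scaled to a common library size with edgeR's TMM factors), the unit of all levels below. Markers of luminal epithelium were present in every sample, with summed levels of 2315 to 5239 CPM. Those of macrophages and leukocytes summed to 560 to 3485 CPM in WT, 14.5 to 37.5 in PIK3CA mutant, 9.40 to 226 in HER2 mutant and 13.1 to 68.2 in double mutant organoids. Fibroblast markers summed to 352 to 1940 CPM in WT and to 26.6 to 60.7 CPM in the double mutant. In bulk samples such as these, fewer cells of a type and less RNA per cell cannot be told apart. Basal and myoepithelial markers summed to 507 to 1031 CPM in WT, 502 to 1315 in PIK3CA mutant, 244 to 868 in HER2 mutant and 490 to 980 in double mutant organoids. By the edgeR test given below, 1, 3 and 1 of the 7 fell against WT in the mutants in that order, beside 3.03, 5.63 and 6.72% of all genes. Proliferation markers summed to 29.2 to 91.4 CPM in WT and to 76.2 to 179, 67.8 to 411 and 84.0 to 235 CPM in the mutants. There 0, 1 and 2 of the 6 rose, beside 1.49, 4.75 and 5.03% of all genes. The basal and proliferation lists are too short for these counts to settle a difference. Macrophage and leukocyte markers did differ from WT, with 10, 8 and 10 of the 10 lower in the PIK3CA, HER2 and double mutants. Of the 7 fibroblast markers, 1, 2 and 6 were lower. The part of cell makeup in the results below was not tested. Double mutant replicates 2 and 3 stood apart from the other double mutants in many of these genes, and calls that were lost without them are given with both values.

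The 36 entries together took 0.828 to 1.14% of all counts in WT, 1.48 to 2.14% in PIK3CA mutant, 1.01 to 1.96% in HER2 mutant and 1.13 to 2.56% in double mutant organoids. HER2 mutant replicate 4 and double mutant replicates 4 and 5 were near the WT samples, while every PIK3CA mutant sample lay above them. Against WT, 5 entries rose and 1 fell in the PIK3CA mutant, by edgeR's quasi-likelihood test at an adjusted p under 0.05. Below, called or past the threshold refers to this test in the fit of all samples unless another tool or fit is named. Of all genes tested, 1.49% rose and 3.03% fell in that comparison, 4.52% in all. The HER2 mutant had 8 higher entries and 0 lower, where 4.75% of all genes rose and 5.63% fell (10.4% in all); by an unadjusted p under 0.05, 14 entries differed in either direction, beside 25.7% of all genes, and DESeq2 called 10 and limma 8 in all. In the double mutant 12 rose and 3 fell, beside 5.03% and 6.72% of all genes (11.8% in all). The median log2 fold change over the entries was 0.48, 0.51 and 0.72 in the PIK3CA, HER2 and double mutants, against -0.03, 0.03 and 0.01 over all genes. Counting entries whose samples did not overlap with WT, 18 were wholly higher in the PIK3CA mutant, where 13.8% of all genes were. The corresponding numbers were 9 in the HER2 mutant (9.81% of all genes) and 12 in the double mutant (9.68%). All 3 comparisons share the same 3 WT samples. The WT samples themselves were spread: WT replicate 2 was the highest of the WT samples in 25 of 36 entries, where it was the highest in 37.2% of all genes. Of the 29 calls against WT, 21 were lost without WT replicate 1, 24 without WT replicate 3 and 4 without WT replicate 2. None changed sign in any fit that was run. In edgeR fits of only the 2 genotypes compared, the PIK3CA mutant had 20 entries past the threshold, the HER2 mutant 1 (Hk2) and the double mutant 10, of which 9 were among its original 15.

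**Figure D1:**
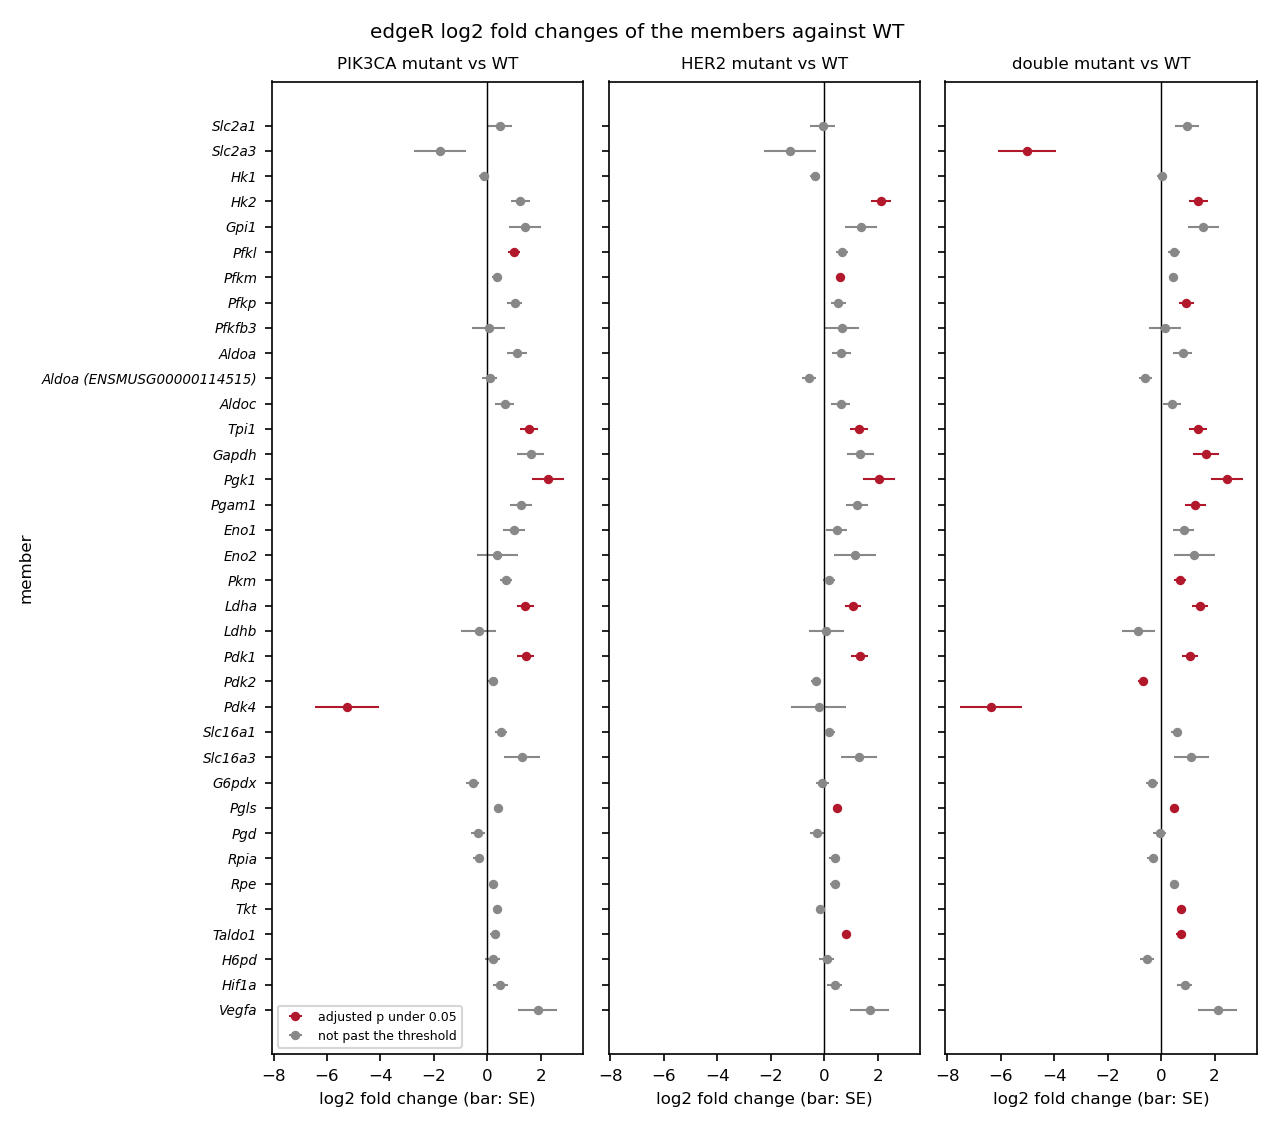
Log2 fold change against WT (x axis) for each of the 36 gene entries (y axis), in 3 panels for the PIK3CA, HER2 and double mutant. Points are edgeR estimates, bars are ± 1 standard error and red points had an adjusted p under 0.05; Pgk1 and Tpi1 lie to the right in all panels, and Pdk4 lies far to the left in the PIK3CA and double mutants only.

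Tpi1, Pgk1, Ldha and Pdk1 were past the threshold against the shared WT samples in each of the 3 mutants. Their promoters are shown because these genes moved in the same direction and are known targets of hypoxia-inducible factor. The sequences are the 250 bases before the RefSeq transcription start, from the RefSeq table for GRCm38.p6, written 5′ to 3′ on the gene's strand. Capitals mark ACGTG or GCGTG on either strand, the core letters of a hypoxia response element, of which the E-box CACGTG contains one on each strand. The windows are chr6:124814159-124814408 (minus strand) for Tpi1, chrX:106186850-106187099 (plus) for Pgk1, chr7:46845554-46845803 (plus, 1 of 2 windows of the gene) for Ldha and chr2:71872974-71873223 (plus, 1 of 2) for Pdk1.
Tpi1: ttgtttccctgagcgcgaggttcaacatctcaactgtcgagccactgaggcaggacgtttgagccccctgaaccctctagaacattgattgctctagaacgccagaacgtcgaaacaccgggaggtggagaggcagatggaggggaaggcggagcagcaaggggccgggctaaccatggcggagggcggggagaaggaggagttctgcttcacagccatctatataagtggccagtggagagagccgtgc
Pgk1: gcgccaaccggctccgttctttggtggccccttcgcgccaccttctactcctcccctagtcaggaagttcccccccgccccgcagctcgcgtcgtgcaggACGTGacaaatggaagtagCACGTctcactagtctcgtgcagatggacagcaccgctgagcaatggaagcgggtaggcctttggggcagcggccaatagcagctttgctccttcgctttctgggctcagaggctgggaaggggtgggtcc
Ldha: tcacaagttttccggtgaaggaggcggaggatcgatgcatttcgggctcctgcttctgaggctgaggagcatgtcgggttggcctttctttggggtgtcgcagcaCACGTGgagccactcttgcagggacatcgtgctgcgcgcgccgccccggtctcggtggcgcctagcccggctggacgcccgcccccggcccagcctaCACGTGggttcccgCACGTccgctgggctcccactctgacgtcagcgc
Pdk1: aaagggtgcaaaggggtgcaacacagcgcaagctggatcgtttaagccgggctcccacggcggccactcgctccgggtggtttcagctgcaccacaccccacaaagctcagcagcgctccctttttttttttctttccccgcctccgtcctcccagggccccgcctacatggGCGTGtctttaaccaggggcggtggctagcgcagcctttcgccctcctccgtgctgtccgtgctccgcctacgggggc
The core occurred 5 times in the Ldha window, where the E-box CACGTG occurred at 2 places. It occurred 2 times in Pgk1, 1 time in Pdk1 and 0 times in Tpi1. GENCODE M21 places the start of Tpi1 at chr6:124814296, inside the printed window, so only part of that window is upstream of this start. The Ldha window lies wholly inside the span GENCODE M21 gives that gene (chr7:46841475-46855627). Over the 250 bases before each start, 37 of the 50 windows matched to these genes held the core (74%). The share was 38.6% over the same bases of all 32851 promoter windows. Some windows of one gene overlap, and 34 of the 35 symbols had a window. CACGTG itself was in 6 of the 50 windows (12%) and in 6.02% of all. A match describes letters only and shows no binding.

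Glucose enters through carriers of the Slc2a family. Slc2a1, the broadly expressed carrier GLUT1, was at 376, 403 and 308 CPM in WT and between 173 and 669 CPM in the PIK3CA and HER2 mutants. In the double mutant it was at 425, 1053, 1355, 377 and 339.6 CPM. Only double mutant replicates 2 and 3 exceeded the other genotypes, and the change from WT did not pass the test (log2 0.97, SE 0.45, edgeR adjusted p 0.178). Slc2a3 (GLUT3, a high-affinity carrier of neurons and white blood cells) was low everywhere. Its levels in WT were 0.717, 2.78 and 1.97 CPM, from 41, 139 and 118 counts. The double mutant had 1, 4, 3, 6 and 0 counts in its 5 samples, all below every WT sample. By summed counts per summed library size, Slc2a3 was 33.2 times higher in WT, with an exact 95% interval of 19.5 to 61.4 that covers counting error only. The test called the difference (edgeR adjusted p 0.00679), and it stayed below 0.05 in every fit, with a highest value of 0.0367. Slc2a3 in the single mutants overlapped with WT and was not called: the PIK3CA mutant had 0.0954, 0.165, 0.288 and 1.57 CPM. All 10 macrophage and leukocyte markers fell in the double mutant as well, with 0 to 2 of the 10 at 0 counts in each double mutant sample and none at 0 in WT. They also fell in the single mutants, where Slc2a3 was not called: 10 of 10 in the PIK3CA and 8 of 10 in the HER2 mutant. The part of these cells in the Slc2a3 difference was not tested.

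Hexokinases trap glucose by phosphorylation. Hk1, the constitutive form, was at 403 to 431 CPM in WT and 358 to 436 CPM in the double mutant and was not called in any comparison, although the HER2 mutant was past the threshold against WT without HER2 mutant replicate 1 (log2 -0.54, edgeR adjusted p 0.0406). Hk2, the inducible form, rose in the HER2 mutant. Its levels were 22.8, 32.7 and 27.8 CPM in WT, and 153, 125, 109 and 101 CPM in the HER2 mutant. The groups were far apart, with a log2 fold change of 2.13 (SE 0.37, edgeR adjusted p 0.00279) that was kept in all 7 fits with a library left out and in the 9 other settings. In the PIK3CA mutant Hk2 was at 59.7, 57.3, 50.7 and 93.1 CPM, again above every WT sample, with an edgeR adjusted p of 0.0616. DESeq2 (0.0166), edgeR with no filter on low counts (0.0385) and edgeR on these genotypes alone (0.00749) placed that difference past the threshold. In the double mutant it was at 38.8, 119.9, 107, 53.3 and 47.4 CPM, and the log2 fold change against WT was 1.4 (SE 0.35, edgeR adjusted p 0.0155). The double mutant thus spanned the range from near WT to the HER2 mutant levels. Without double mutant replicates 2 and 3 the value was 0.74 with an adjusted p of 0.061, and without WT replicate 1 or 3 the p was 0.084 and 0.0742. Against the HER2 mutant, Hk2 was called lower in the double mutant only without double mutant replicates 2 and 3 (log2 -1.39, edgeR adjusted p 0.00718). Those were its 2 highest double mutant samples, so leaving them out lowers its level there. As a description per exon length, Hk2 stood at 0.098 of Hk1 in WT by the median, at 0.228 in the PIK3CA mutant, 0.509 in the HER2 mutant and 0.175 in the double mutant. Gpi1, which interconverts glucose and fructose 6-phosphates, reached 943 to 1729 CPM in the PIK3CA mutant against 319.5, 657 and 368 CPM in WT. Its double mutant samples lay at 709.7, 2517, 2503, 522 and 445 CPM. In the fit of all samples edgeR called Gpi1 in no comparison, but DESeq2 did in the double mutant against WT (log2 1.59, adjusted p 0.0263) and edgeR in the PIK3CA mutant when only these genotypes were fitted (log2 1.41, 0.0154).

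Phosphofructokinase is the committed and most regulated step, built from liver (Pfkl), muscle (Pfkm) and platelet (Pfkp) type subunits. Pfkl rose in the PIK3CA mutant, from 205, 352 and 239 CPM in WT to 521, 473, 568 and 539 CPM. The groups did not overlap (log2 0.99, SE 0.23, edgeR adjusted p 0.0207), but the p was 0.12 and 0.135 without WT replicate 1 or 3, 0.0543 without PIK3CA mutant replicate 3 and 0.059 with a replicate block. Pfkm rose in the HER2 mutant by 0.59 (log2, SE 0.16, edgeR adjusted p 0.0314), with 35.0, 45.3 and 32.3 CPM in WT and 73.8, 44.7, 54.9 and 52.3 CPM in the mutant. Here HER2 mutant replicate 2 lay below the highest WT sample, and the call was lost without WT replicate 1 or 3 (p 0.13 and 0.172), without HER2 mutant replicate 1 or 3 (0.0602 and 0.0502), and in fits with no filter on low counts, of these genotypes only, or with a replicate block (0.0606, 0.159 and 0.0826). Pfkp rose in the double mutant from 139.7, 187 and 148 CPM to 237, 369, 464, 253 and 190.2 CPM (log2 0.94, SE 0.28, edgeR adjusted p 0.0402). All 5 double mutant samples were above WT, the lowest only just. The Pfkp call was lost in fits without any 1 WT sample (p 0.161, 0.0567 and 0.165), without double mutant replicate 2 or 3 (0.0826 and 0.0811), and without both (log2 0.52, p 0.201), with upper-quartile scaling (0.0509) and in a fit of these genotypes alone (0.0585). Against WT, Pfkp in the PIK3CA mutant was past the threshold only in alternatives, among them DESeq2 (log2 1.03, adjusted p 0.0193) and limma (0.0484). Pfkfb3, which makes the activator fructose 2,6-bisphosphate, was not called and ranged from 30.4 to 241 CPM in the double mutant and from 39.7 to 218 CPM in the HER2 mutant. Without double mutant replicates 2 and 3, its 2 highest double mutant samples, it was lower in the double than in the HER2 mutant (log2 -1.75, edgeR adjusted p 0.0404).

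The steps from aldolase to pyruvate kinase held the most abundant genes of the pathway, and all but 1 of the 10 entries had a higher mean in every mutant than in WT; the exception was the second, short Aldoa gene, at 1.68 to 5.02 CPM. Pgk1, the first ATP-producing step, had the largest fold change of the 10 against WT in each mutant. It was at 78.5, 259 and 92.5 CPM in WT, and at 615, 681, 524 and 929.5 CPM in the PIK3CA mutant. HER2 mutant levels were 901, 505, 715 and 240.1 CPM, and double mutant levels 603, 1638, 1029, 369.9 and 326 CPM. Only HER2 mutant replicate 4 fell inside the WT range. The log2 fold changes were 2.26 (SE 0.60, edgeR adjusted p 0.0412), 2.04 (SE 0.59, 0.0386) and 2.47 (SE 0.59, 0.0127). Each was lost without WT replicate 1 or 3, with adjusted p between 0.0737 and 0.225. The PIK3CA call was also lost without any 1 of its 4 samples (0.0579 to 0.0971), the HER2 call without HER2 mutant replicate 1 or 3 (0.0763 and 0.0711) and in a fit of these genotypes alone (0.0983), and the double mutant call without its replicates 2 and 3 (log2 1.60, p 0.0615).

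Tpi1 interconverts the triose phosphates. WT levels were 132, 254 and 149 CPM, against 520.4, 531, 446 and 595 CPM in the PIK3CA mutant. In the HER2 mutant they were 642, 315, 417 and 381 CPM, and in the double mutant 497, 745, 524, 288 and 282 CPM. Every mutant sample was above every WT sample, and the log2 fold changes were 1.55 (SE 0.34, edgeR adjusted p 0.0148), 1.30 (SE 0.34, 0.025) and 1.39 (SE 0.33, 0.0122) in that order. Without WT replicate 1 the adjusted p became 0.0862, 0.118 and 0.0766, and without WT replicate 3 it became 0.106, 0.125 and 0.0817. The HER2 call was lost without HER2 mutant replicate 1 (0.0547) and in a fit of these genotypes alone (0.0785) as well, and the double mutant call without its replicates 2 and 3 (log2 0.99, p 0.0582).

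Gapdh, which makes the NADH of glycolysis, was at 752, 1436 and 776 CPM in WT and 2711, 6297, 4029, 1505 and 1393 CPM in the double mutant. It rose there by 1.69 (log2, SE 0.49, edgeR adjusted p 0.0357), although double mutant replicate 5 was under the highest WT sample. The fold change was 0.92 with p 0.19 without double mutant replicates 2 and 3, and p was 0.151 and 0.166 without WT replicate 1 or 3 and 0.0789 and 0.0633 without double mutant replicate 2 or 3. In a fit of these genotypes alone it was 0.0632. Pgam1, which moves the phosphate of phosphoglycerate, rose in the double mutant from 65.1, 123 and 87.0 CPM to 152, 309.9, 368, 144 and 137 CPM (log2 1.28, SE 0.39, edgeR adjusted p 0.0451). All 5 samples lay above WT. Leaving out WT replicate 1 or 3 gave p values of 0.192 and 0.168, and leaving out double mutant replicate 2 or 3 gave 0.0938 and 0.0944; without both, the value was 0.66 with p 0.248. With a replicate block the p was 0.0508, with upper-quartile scaling 0.0509 and in a fit of these genotypes alone 0.0586. DESeq2 also called Gapdh and Pgam1 in both single mutants against WT, with adjusted p of 0.0163 to 0.039. Pkm, pyruvate kinase of dividing and most adult tissues, rose in the double mutant from 1174, 1223 and 1133 CPM to 1884, 2477, 2262, 1544 and 1425 CPM (log2 0.71, SE 0.22, edgeR adjusted p 0.0492). The groups did not overlap, but the call was at the edge of the threshold and was lost without any 1 WT sample (0.146, 0.101 and 0.178), without double mutant replicate 1, 2 or 3 (0.0628, 0.101 and 0.091), without replicates 2 and 3 (log2 0.46, p 0.213), with upper-quartile scaling (0.0626), with no filter on low counts (0.0517) and in a fit of these genotypes alone (0.0557).

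The main aldolase Aldoa (1016 to 3371 CPM over samples except HER2 mutant replicate 4, at 925 CPM), its paralog Aldoc, the enolase Eno1 and the neuronal enolase Eno2 were called in no comparison by edgeR in the fit of all samples. The log2 fold changes of Aldoa against WT were 1.12, 0.64 and 0.82 in the PIK3CA, HER2 and double mutants, with edgeR adjusted p of 0.112, 0.287 and 0.15. The PIK3CA change of Aldoa was past the threshold with DESeq2 (0.0439), with a replicate block (0.0462) and in a fit of these genotypes alone (0.00261), and the double mutant change with a replicate block (0.0493). Those of Eno1 were 0.99, 0.47 and 0.85, with edgeR adjusted p of 0.213, 0.499 and 0.17. In the fit of the PIK3CA mutant and WT alone, Aldoc and Eno1 were past the threshold (0.0138 and 0.0139). Several of these genes have processed pseudogenes, and Eno1 a retrotransposed copy; how reads shared with such copies were counted is not given in the sources used here. Exons of Tpi1, Gapdh, Pfkm, Pfkp, Aldoa, G6pdx and Rpe overlap a coding gene on the opposite strand in GENCODE M21. Those of Pgls and Hif1a overlap a coding gene on the same strand, which stranded counting would not separate. Strandedness of the counting was not stated, so part of the counts of all these genes may belong to the neighbour. The overlap was greatest for Pgls, at 20.6% of exon bases.

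**Figure D2:**
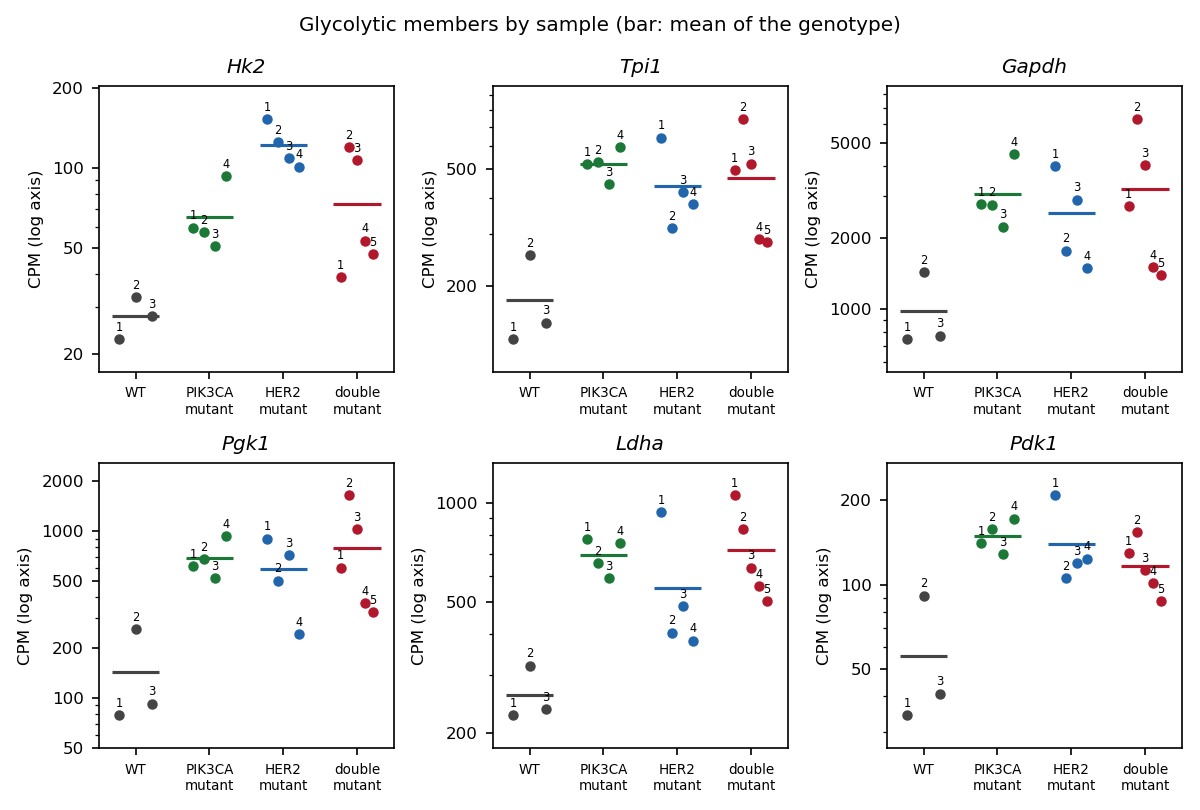
CPM on a log axis for Hk2, Tpi1, Gapdh, Pgk1, Ldha and Pdk1 by genotype (x axis); each point is a sample with its replicate number and the bar is the mean. WT replicate 2 is the highest WT sample in every panel, and in the double mutant replicates 2 and 3 are the 2 highest for Hk2, Tpi1, Gapdh and Pgk1 but not for Ldha or Pdk1.

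Lactate dehydrogenase turns pyruvate into lactate while regenerating NAD; the A subunit (Ldha) dominates where lactate is made, and the B subunit (Ldhb) in oxidative tissue. Ldha was at 226, 321 and 236 CPM in WT, 778, 659, 591 and 756 CPM in the PIK3CA mutant and 941, 404, 486 and 382 CPM in the HER2 mutant. Double mutant levels were 1056, 836, 638, 560.1 and 503 CPM. No mutant sample reached down to the WT range. Ldha rose by 1.41 (log2, SE 0.32, edgeR adjusted p 0.0158), 1.08 (SE 0.31, 0.0378) and 1.46 (SE 0.31, 0.00567). The double mutant call was kept in all 8 fits that left out 1 library and in the 10 other settings, including the one without replicates 2 and 3, with a highest adjusted p of 0.0441. The PIK3CA call was lost without WT replicate 1 or 3 (0.084 and 0.104). The HER2 call was lost without any 1 WT sample (0.146, 0.0506 and 0.158) without HER2 mutant replicate 1 or 3 (0.0844 and 0.0505), and in a fit of these genotypes alone (0.132). Ldhb was not called; it was at 40.6 to 50.8 CPM in WT and ranged from 7.36 to 107 CPM in the HER2 mutant. Per exon length, the median ratio of Ldhb to Ldha was 0.402 in WT, 0.115 in the PIK3CA mutant, 0.096 in the HER2 mutant and 0.082 in the double mutant. The lactate carriers Slc16a1 (MCT1) and Slc16a3 (MCT4, the exporter of glycolytic cells) were not called, although Slc16a1 in the double mutant was past the threshold against WT without WT replicate 2 (log2 0.85, edgeR adjusted p 0.0246) or double mutant replicate 1 (0.67, 0.049). Slc16a3 was spread widely in WT (7.53, 42.9 and 21.3 CPM) and among mutants (15.4 to 118 CPM).

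Pyruvate dehydrogenase kinases switch off the entry of pyruvate into mitochondrial oxidation, and the 3 measured here moved in different directions. Pdk1, the hypoxia-inducible form, was at 34.3, 91.5 and 41.0 CPM in WT. It was at 141, 158, 128 and 172 CPM in the PIK3CA mutant, 208, 105, 119.6 and 124 CPM in the HER2 mutant and 129.6, 154, 112, 101 and 87.2 CPM in the double mutant. Among mutant samples only double mutant replicate 5 lay under the highest WT sample. Pdk1 rose by 1.43 (log2, SE 0.32, edgeR adjusted p 0.0155), 1.32 (SE 0.32, 0.016) and 1.07 (SE 0.30, 0.0306). These calls were lost without WT replicate 1 (0.0852, 0.0822 and 0.16) or 3 (0.118, 0.101 and 0.172), and the double mutant call also without its replicate 2 (0.0665) and without replicates 2 and 3 (log2 0.93, p 0.104). In fits of the compared genotypes alone, the HER2 and double mutant calls were lost (0.113 and 0.0573).

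Pdk4, the form of fasting and fatty acid oxidation, went the other way. Its levels were 14.7, 56.1 and 27.9 CPM in WT, but 0.906, 0.351, 1.57 and 0.607 CPM in the PIK3CA mutant and 0.0709, 0.713, 0.196, 0.536 and 0.467 CPM in the double mutant. The HER2 mutant samples differed widely from each other, at 3.02, 97.2, 12.5 and 0.798 CPM. Pdk4 was thus low in all 9 samples with the PIK3CA allele, at 4 to 71 counts each, and in HER2 mutant replicate 4. By summed counts it was 37.8 times higher in WT than in the PIK3CA mutant (95% interval 32.6 to 44.1, counting error only) and 82.1 times higher than in the double mutant (67.5 to 101). Pdk4 fell by 5.26 (log2, SE 1.21, edgeR adjusted p 0.0187) in the PIK3CA mutant and by 6.38 (SE 1.16, 0.00227) in the double mutant, where the call was kept in every fit. The PIK3CA call was lost without WT replicate 3 (0.0527) and without PIK3CA mutant replicate 1, 2 or 4 (0.0629, 0.0702 and 0.0638). The double mutant was also lower than the HER2 mutant (log2 -6.16, SE 1.13, edgeR adjusted p 0.0109), a call that was lost with a replicate block (log2 -5.18, p 0.0881) and in a fit of these genotypes alone (0.0854). HER2 mutant replicate 2 carried much of its size: without that sample the difference was -3.78 (log2, SE 0.78, edgeR adjusted p 0.0212). Fibroblast markers summed to 68.1 to 485 CPM in the PIK3CA mutant and 35.2 to 639 CPM in the HER2 mutant, beside the 352 to 1940 CPM of WT; HER2 mutant replicate 4 had the highest fibroblast sum of the mutants and the lowest Pdk4 of its genotype, and the part of these cells in the Pdk4 result was not tested.

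Pdk2, a widely expressed form, was at 113, 109 and 109.7 CPM in WT and 114, 112, 159.7 and 128 CPM in the PIK3CA mutant. It was at 64.8, 62.4, 68.5, 78.3 and 72.8 CPM in the double mutant, below every sample of both. Pdk2 fell by 0.67 against WT (log2, SE 0.17, edgeR adjusted p 0.0201) and by 0.89 against the PIK3CA mutant (SE 0.16, 0.0241). The first call was lost without WT replicate 1 or 3 (0.0748 and 0.0762), without double mutant replicates 2 and 3 (log2 -0.62, p 0.0779), with a GC and length offset (0.0518) and with a replicate block (0.0555). The second was lost in 7 of 9 fits without 1 library, with adjusted p up to 0.115: all 4 without a PIK3CA mutant sample, and those without double mutant replicate 1, 2 or 5. With a replicate block its p was 0.118, and without double mutant replicates 2 and 3 it was 0.0624 (log2 -0.84). HER2 mutant levels of Pdk2 were 128, 83.3, 67.6 and 78.9 CPM, with replicate 1 apart from the other HER2 mutant samples.

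**Figure D3:**
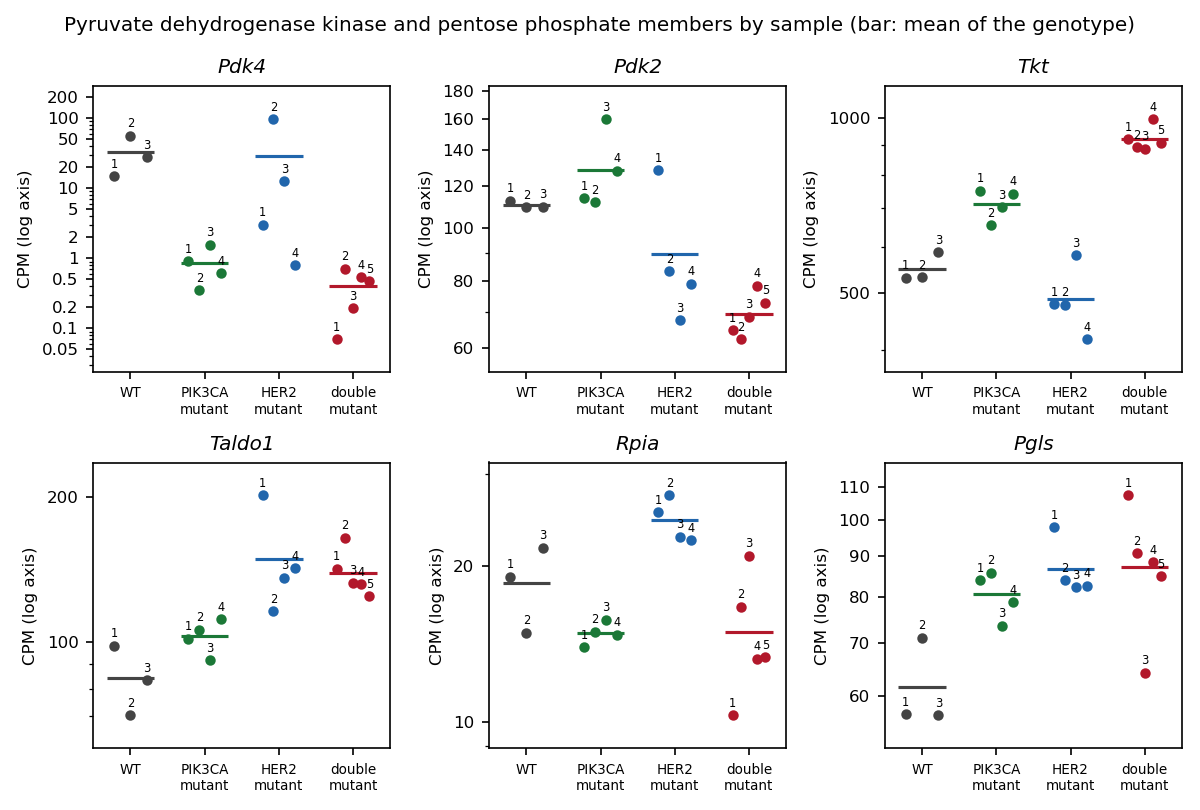
CPM on a log axis for Pdk4, Pdk2, Tkt, Taldo1, Rpia and Pgls by genotype (x axis); each point is a sample with its replicate number and the bar is the mean. Pdk4 spans from 0.0709 to 97.2 CPM, and Tkt is tightly grouped within genotypes with all 5 double mutant samples above all others.

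In the non-oxidative arm of the pentose phosphate pathway, Tkt and Taldo1 rose in the double mutant. Tkt, transketolase, moves 2-carbon units between sugars. It was at 532, 533 and 589 CPM in WT and 751, 656, 703 and 742 CPM in the PIK3CA mutant. The HER2 mutant had 479.7, 479, 581 and 418 CPM, and the double mutant 919.7, 892, 887, 997 and 908 CPM. Samples of a genotype lay close together, and the double mutant did not overlap with any other genotype. Tkt rose in the double mutant by 0.74 against WT (log2, SE 0.12, edgeR adjusted p 0.00121) and by 0.91 against the HER2 mutant (SE 0.11, 0.00118). The first call held in every fit, with a highest adjusted p of 0.0106. The second held in all 9 fits without 1 library and was lost only when the 2 genotypes were fitted alone (0.0583). Against the PIK3CA mutant, Tkt was not called higher in the double mutant (log2 0.37, SE 0.11, edgeR adjusted p 0.172, DESeq2 0.03). Every PIK3CA mutant sample lay above WT, again with no edgeR call (log2 0.37, SE 0.13, adjusted p 0.125, DESeq2 0.034). Tkt was lower in the HER2 than in the PIK3CA mutant (log2 -0.54, SE 0.12, edgeR adjusted p 0.0174), which was lost without PIK3CA mutant replicate 1 or 4 (0.058 and 0.0527), with a replicate block (0.0503) and in a fit of these genotypes alone (0.0762). The gene lies at chr14:30548359-30574720 on the plus strand of GRCm38.

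Taldo1, transaldolase, is the partner of transketolase. Its levels were 98.2, 70.4 and 83.3 CPM in WT, 102, 106, 91.5 and 111 CPM in the PIK3CA mutant, 202, 116, 136 and 142 CPM in the HER2 mutant and 142, 165, 133, 132 and 124 CPM in the double mutant. Both genotypes with the HER2 allele were above all other samples. Taldo1 rose by 0.83 in the HER2 mutant (log2, SE 0.18, edgeR adjusted p 0.00874) and by 0.73 in the double mutant (SE 0.17, 0.0104). The HER2 call was lost without WT replicate 3 (0.0504) and in a fit of these genotypes alone (0.091), and the double mutant call without WT replicate 2 or 3 (0.0572 and 0.0594). Rpia, which makes ribose 5-phosphate, was at 25.4, 27.3, 22.7 and 22.4 CPM in the HER2 mutant, above every sample of the PIK3CA mutant (13.9, 14.9, 15.7 and 14.7 CPM) and of the double mutant (10.3, 16.7, 20.9, 13.2 and 13.3 CPM). The HER2 mutant exceeded the PIK3CA mutant by 0.72 (log2, SE 0.19, edgeR adjusted p 0.0417), and the double mutant was lower than the HER2 mutant by the same size (log2 -0.72, SE 0.18, 0.0466). Each Rpia call was lost in 7 fits without 1 library, with adjusted p up to 0.115 and 0.1: the first without any 1 PIK3CA mutant sample or HER2 mutant replicate 1, 2 or 3, the second without HER2 mutant replicate 1, 2 or 4 or double mutant replicate 1, 2, 4 or 5. Both were also lost with a replicate block (0.0732 and 0.129), with no filter on low counts (0.0697 and 0.0609) and with a GC and length offset (0.087 and 0.0891). In fits of the compared genotypes alone only the second was lost (0.217). WT levels of Rpia, at 19.1, 14.9 and 21.7 CPM, lay under every HER2 mutant sample and overlapped with both the PIK3CA and the double mutant.

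The oxidative arm, which yields NADPH, was called only at Pgls. G6pdx, the entry enzyme, was at 184, 151 and 235 CPM in WT and 117 to 293 CPM in the mutants. Pgd, the second NADPH-producing enzyme, was at 190.3 to 258 CPM in WT and 91.2 to 268 CPM in the mutants. Neither was called. In the PIK3CA mutant every sample lay below WT for both, at 117 to 147 CPM for G6pdx and 156 to 187 CPM for Pgd. When only these genotypes were fitted, edgeR placed the G6pdx fall past the threshold (log2 -0.55, adjusted p 0.0339). H6pd, their counterpart in the endoplasmic reticulum, was at 82.4 to 94.9 CPM in WT and 42.4 to 76.1 CPM in the double mutant. Those groups did not overlap, but the adjusted p was 0.214 (log2 -0.53, SE 0.26). Pgls, the lactonase between G6pdx and Pgd, rose by 0.49 in the HER2 mutant (log2, SE 0.15, edgeR adjusted p 0.0499) and by 0.50 in the double mutant (SE 0.15, 0.0358). Its levels were 57.0, 71.1 and 56.7 CPM in WT, 98.1, 84.1, 82.3 and 82.7 CPM in the HER2 mutant and 107, 90.9, 64.2, 88.5 and 85.1 CPM in the double mutant, where replicate 3 lay inside the WT range. Both calls were lost in 6 fits without 1 library: without WT replicate 1 or 3 (p 0.16 to 0.211), without any 1 HER2 mutant sample (0.0576 to 0.0942), and without double mutant replicate 1, 2, 4 or 5 (0.0514 to 0.0637). They were lost too with no filter on low counts (0.106 and 0.0678) and in fits of the genotypes compared alone (0.104 and 0.0837), and the HER2 call with a replicate block (0.06). Rpe, the epimerase of the non-oxidative arm, was at 24.4 to 27.9 CPM in WT and 29.1 to 44.5 CPM in the double mutant, with an edgeR adjusted p of 0.0673 and a DESeq2 adjusted p of 0.0493.

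Hif1a, the oxygen-regulated subunit of hypoxia-inducible factor, is controlled mainly by protein stability, which RNA does not show. Its RNA was at 92.5, 117 and 96.7 CPM in WT and 195, 213, 174, 167 and 192 CPM in the double mutant, with no overlap (log2 0.89, SE 0.28, edgeR adjusted p 0.0504). DESeq2 (adjusted p 0.0247), limma (0.0416), no filter on low counts (0.0465), upper-quartile scaling (0.0482) and a fit of these genotypes alone (0.0027) placed it past the threshold. Vegfa, the angiogenic ligand that hypoxia induces, was at 144, 324 and 151 CPM in WT and 556, 722, 681 and 1075 CPM in the PIK3CA mutant. In the HER2 mutant it was at 325, 1039, 1000.3 and 313 CPM, and in the double mutant at 298, 1350.1, 2265, 311 and 240.1 CPM. Both HER2 genotypes were split into samples near the highest WT sample and samples at or above 1000.3 CPM. The log2 fold changes were 1.88 (SE 0.74, edgeR adjusted p 0.195), 1.70 (SE 0.74, 0.159) and 2.11 (SE 0.73, 0.0739), none of which passed edgeR's test in the fit of all samples; for the double mutant DESeq2 gave an adjusted p of 0.00961 and the replicate block 0.0386.

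**Figure D4:**
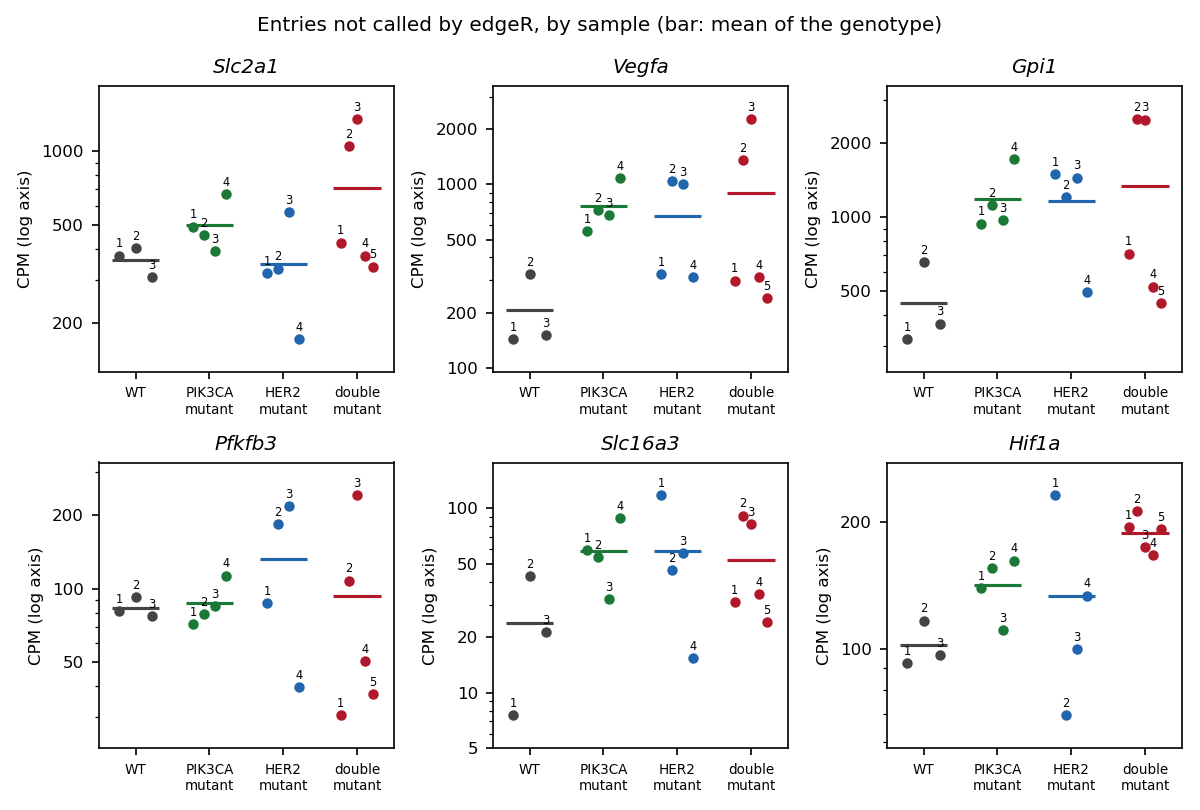
CPM on a log axis for Slc2a1, Vegfa, Gpi1, Pfkfb3, Slc16a3 and Hif1a, none of which edgeR called in the fit of all samples, by genotype (x axis); each point is a sample with its replicate number and the bar is the mean. Double mutant replicates 2 and 3 are the 2 highest of their genotype in every panel but Hif1a, where the 5 samples lie between 167 and 213 CPM.

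Variation inside a genotype was shared by many of these genes. Double mutant replicates 2 and 3 were the 2 highest of the 5 samples in 16 of 36 entries, where this was so for 23.2% of all genes. They include Slc2a1, Hk2, Gpi1, Pfkp, Aldoa, Tpi1, Gapdh, Pgk1, Pgam1, Pkm and Vegfa. In the PIK3CA mutant replicate 4 was the highest in 20 entries (26.4% of all genes), and in the HER2 mutant replicate 1 was the highest in 21 (28.5%) and replicate 4 the lowest in 19 (23.5%). Without double mutant replicates 2 and 3, an alternative chosen after seeing the data, 8 entries differed between the double mutant and WT, of which 6 were among the original 15. Slc2a3 and Pdk4 stayed lower and Ldha, Pgls, Tkt and Taldo1 higher. Rpe and Rpia were added, at a log2 fold change of 0.61 and -0.59. For Rpia the samples left out were the 2 highest double mutants.

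**Figure D5:**
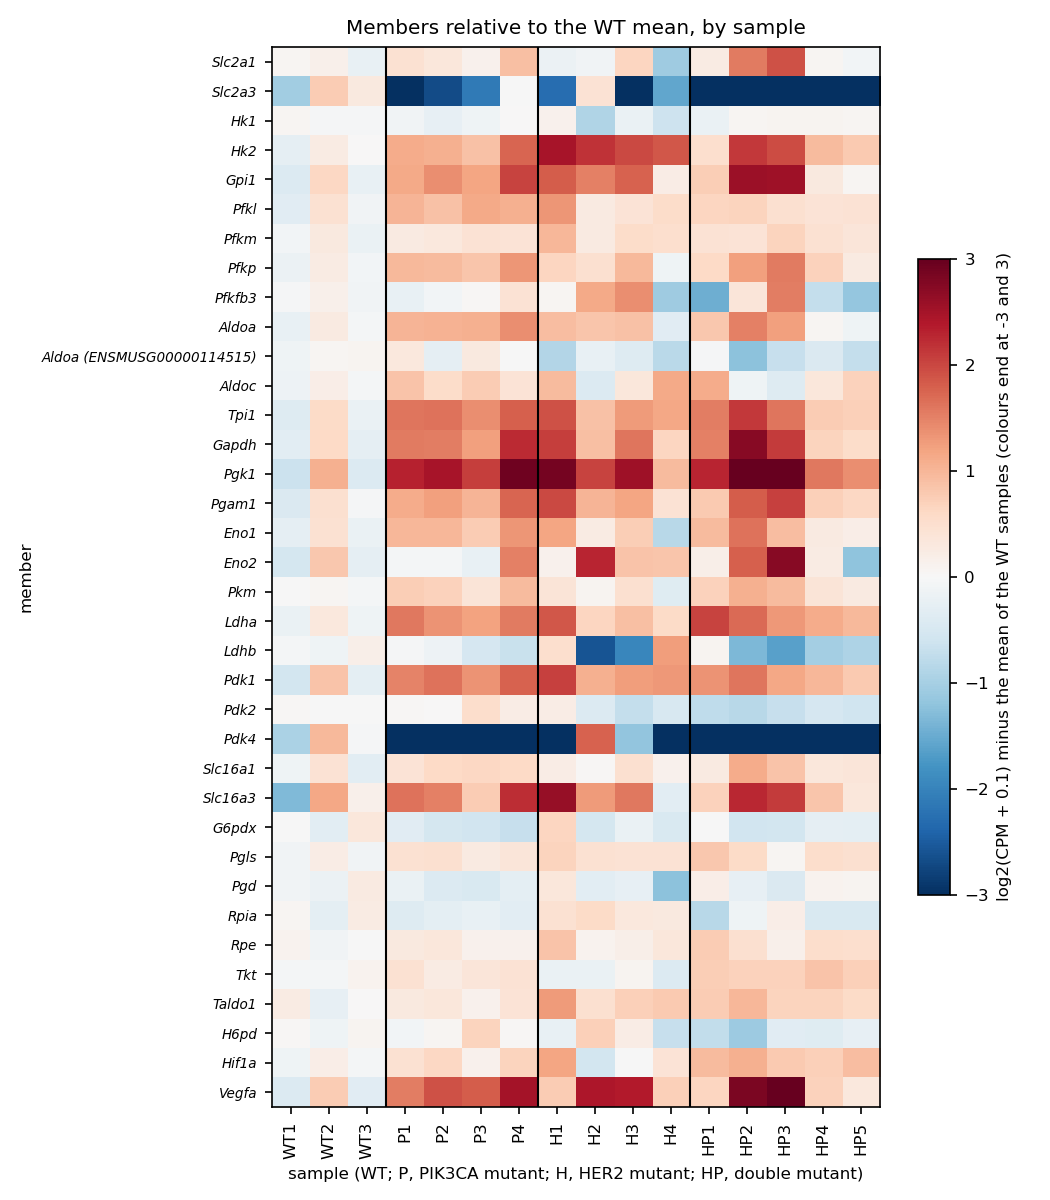
Log2 of CPM plus 0.1 for each of the 36 gene entries (rows) in the 16 samples (columns, grouped by genotype). From each row the mean of its WT samples is subtracted. The colour bar gives the difference from that WT mean, and colours end at a difference of 3 in either direction. WT replicate 2 is the highest WT sample in 25 rows, and double mutant replicates 2 and 3 are the 2 highest of their genotype in 16 rows. Pdk4 lies below the WT mean in every PIK3CA and double mutant sample, and Slc2a3 in every double mutant sample.

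Differences among the mutants were few. Against the HER2 mutant, the double mutant had 1 higher entry (Tkt) and 2 lower (Pdk4 and Rpia), where 1.03% and 1.47% of all genes were called (2.5% together). Against the PIK3CA mutant it had 0 higher and 1 lower (Pdk2), beside 0.309% and 0.363% (0.672% together); 7 entries and 12.4% of all genes had an unadjusted p under 0.05, and DESeq2 called 3 and limma 1. The HER2 mutant had 2 higher entries (Pdk4 and Rpia) and 1 lower (Tkt) than the PIK3CA mutant, where 2.21% and 2.2% of all genes were called (4.41% together). The Pdk4 difference there was 5.05 (log2, SE 1.17, edgeR adjusted p 0.0247) with overlapping samples, since HER2 mutant replicate 4 lay inside the PIK3CA range. It was lost without HER2 mutant replicate 2 (log2 2.66, p 0.0707), with limma (log2 3.28, p 0.0991), without any 1 PIK3CA mutant sample (0.0569 to 0.0852), with a replicate block (log2 3.54, p 0.11) and in a fit of these genotypes alone (0.0968). The medians over the entries were 0.07, 0.05 and -0.09 for the 3 comparisons, near the -0.02, 0.04 and 0.07 of all genes. The interaction (how far the double mutant's log2 change departs from the single mutants' changes added up) was called for 0 entries by edgeR, where 1.06% of all genes were called. At an unadjusted p under 0.05 there were 11, beside 13.6% of all genes, and DESeq2 called 5 and limma 2. The lowest adjusted p were those of Hk2 (log2 -1.96, SE 0.46, 0.0562), Pdk1 (-1.68, SE 0.41, 0.0654) and Pfkl (-1.16, SE 0.30, 0.0807). The interaction was negative in 30 of 36 entries, with a median of -0.60 against 0.01 over all genes; the same WT samples enter every value. Without double mutant replicates 2 and 3, 7 entries passed, all negative: Hk2 (-2.62), Gpi1 (-2.47), Tpi1 (-1.86), Pgk1 (-2.71), Pgam1 (-1.82), Pdk1 (-1.82) and Vegfa (-3.12). That fit was chosen after seeing the data, and for all of these but Pdk1 the samples left out were the 2 highest double mutants. Leaving them out lowers the interaction by itself, so these calls give no separate evidence of its direction.

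Neighbouring pathways were read from lists of other genes. Of 19 other targets of hypoxia-inducible factor tested, 3 rose in the PIK3CA mutant, 2 in the HER2 mutant and 5 in the double mutant against WT. Of all genes, 1.49, 4.75 and 5.03% rose in that order. edgeR called 0 as lower in each, also at an unadjusted p under 0.05, where 12, 5 and 15 were higher; of all genes 16.8, 25.7 and 27.1% had such a p in either direction. Their median log2 fold changes were 1.12, 1.03 and 1.4. Vldlr, a lipoprotein receptor, rose by 1.66 and 1.17 in the PIK3CA and HER2 mutants (edgeR adjusted p 0.00251 and 0.0139), and Selenbp1, a selenium-binding protein, by 1.99 in the PIK3CA mutant (0.0349). Ddit4, an inhibitor of mTORC1, rose by 1.28 in the HER2 mutant (0.0385) and 2.21 in the double mutant (0.00141), and Ero1l, an oxidase of the endoplasmic reticulum, by 3.29 in the double mutant (0.0211). Car12, a carbonic anhydrase, was lower in the HER2 mutant than in the PIK3CA mutant by 1.54 and higher in the double than in the HER2 mutant by 1.38 (0.0118 and 0.0246). Without double mutant replicates 2 and 3, Ero1l stood at 1.52 with an adjusted p of 0.13 and was no longer called, and Ddit4 at 1.60 (0.00301). In fits with 1 library left out, Vldlr in the PIK3CA mutant, Ddit4 in the double mutant and Car12 between the single mutants were kept in each, while the other named calls of this list were lost in at least 1, with adjusted p up to 0.206. Among 9 subunits and regulators of hypoxia-inducible factor, edgeR called 0 against WT in each mutant; 2 in the PIK3CA, 4 in the HER2 and 2 in the double mutant had an unadjusted p under 0.05.

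The 19 other tested enzymes of glycolysis and gluconeogenesis were mostly lower where edgeR called them: 4, 5 and 4 fell in the PIK3CA, HER2 and double mutants, beside 3.03, 5.63 and 6.72% of all genes. Only 1 rose, in the double mutant; at an unadjusted p under 0.05, 1, 3 and 1 were higher. Hk3, the hexokinase of white blood cells, fell by 4.78 and 5.21 (log2, edgeR adjusted p 0.00135 and 0.000248) in the PIK3CA and double mutants, from 5.32 to 15.2 CPM in WT to at most 0.598 and 0.35 CPM. The macrophage and leukocyte markers fell with it, 10 of 10 in both, and their part in it was not tested. Fbp2, a gluconeogenic phosphatase of muscle, was at 0.804 to 2.35 CPM in WT and at or under 0.311 CPM in every mutant sample. The liver and kidney phosphatase Fbp1 fell by 3.36 in the HER2 mutant (0.0137) and was higher by 3.72 in the double than in the HER2 mutant (0.0178). Among 9 other VEGF ligands and receptors, the ligand Pgf rose by 2.66, 2.03 and 2.41 in the PIK3CA, HER2 and double mutants (edgeR adjusted p 0.012, 0.0293 and 0.00909), and the co-receptor Nrp1 fell by 2.12, 1.84 and 1.47 (0.0142, 0.0206 and 0.036). With 1 library left out in turn, the Hk3 calls and both Fbp1 calls given here were kept in each fit. Pgf was lost in each mutant without WT replicate 1 or 3 and in the HER2 mutant also without its replicate 3, with adjusted p up to 0.145. Nrp1 was lost in each mutant without WT replicate 3, and in the double mutant in 5 of 8 such fits (up to 0.297). When double mutant replicates 2 and 3 were left out, Pgf was 1.59 (0.0465) and Nrp1 was -1.27 and no longer called (0.15).

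Other NADPH-linked genes were mostly not called. Nqo1, an NADPH-using reductase and target of NRF2, was at 174 to 252 CPM in WT, 10.6 to 63.8 CPM in the HER2 mutant and 163 to 241 CPM in the double mutant. It fell by 2.64 in the HER2 mutant (log2, edgeR adjusted p 0.00116) and was 2.52 higher in the double than in the HER2 mutant (0.00306), with an interaction of 3.27 (0.0089). Me1, the cytosolic malic enzyme and another NADPH source, rose by 1.35 in the PIK3CA mutant and 1.03 in the double mutant (0.0062 and 0.013). Tigar, a phosphatase that diverts sugar to the pentose phosphate pathway, rose by 1.00 in the HER2 mutant (0.02) from 2.66 to 3.94 CPM in WT to 5.36 to 8.13 CPM. Of 11 genes of the pyruvate dehydrogenase complex and pyruvate carriers, edgeR called 0 in either single mutant against WT. At an unadjusted p under 0.05 there were 2 in the PIK3CA and 5 in the HER2 mutant, beside 16.8 and 25.7% of all genes. In the double mutant 2 rose, where 5.03% of all genes did: Pdp2, a phosphatase that activates the complex (1.00, 0.0299), and Pdha1, its catalytic subunit (0.61, 0.0461). Of 6 glucose-sensing genes, Arrdc4 rose by 0.97 in the HER2 mutant and by 0.88 in the double mutant (0.00564 and 0.00531), while its relative Txnip overlapped between all genotypes. With 1 library left out in turn, the 3 Nqo1 results and Arrdc4 in the HER2 mutant were kept in each fit. Me1 in both mutants and Arrdc4 in the double mutant were lost without WT replicate 3 (adjusted p up to 0.0933), Me1 in the double mutant also without WT replicate 1, and Tigar without any 1 WT sample (up to 0.104). Pdp2 and Pdha1 were each lost in 5 of 8 fits (up to 0.112 and 0.198). With double mutant replicates 2 and 3 left out, Me1 and Pdha1 were 0.86 and 0.51 and no longer called (0.0624 and 0.113).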

How the data were processed

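RNA of 16 mouse mammary organoid samples was sequenced (1.3 ug input, SMARTer mRNA-seq libraries), per the labels' protocols. The submitters' processing notes name bcl2fastq 2.20, STAR 2.0.4b, Subread with featureCounts 1.4.5, DESeq2 1.33.5 and the build mm10; annotation and strandedness are not given in the sources used here. The authors deposited raw counts per Ensembl gene, used for the main tests. The authors also deposited normalized values, handled here as signal, which equalled each count divided by the sample's DESeq2 size factor (largest relative difference 5.49e-10) and served one alternative. Of 55774 table entries, 287 repeated a gene identifier and were dropped.

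Genotypes came from the labels. Counts were tested in R 4.3.3 with edgeR 4.0.16: filterByExpr (24252 genes kept), TMM scaling, estimateDisp, and the two-sided quasi-likelihood test in one fit of 16 samples with genotype as the factor. P-values were Benjamini-Hochberg adjusted over all genes tested in each of 7 comparisons, with a threshold of 0.05. The standard error is the absolute log2 fold change divided by the square root of F. Levels are CPM; log2 CPM used a prior count of 2. Positions and exon lengths are those of GENCODE M21 (GRCm38).

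The genes and lists were chosen with earlier results of these data known. Entries past the threshold in any comparison are given per sample, the others by range; of each other list, at most the 2 largest called changes per direction and comparison are named, while Txnip was named after its values were seen. A gene that met this rule is not reported here. Alternatives used DESeq2 1.42.0, limma 3.58.1 (pseudocount 1), other scalings, no filter, a replicate block, a GC and length offset (mgcv 1.9.3; 99.7% of kept genes had both values), only the genotypes compared, and each sample left out; for genes of the other lists, leaving out samples was added after seeing the data. The fit was tested on simulated counts with known changes.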

Additional observations from a re-analysis of the deposited data

Results flagged for a closer look

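In groups of 4 or 5 samples, a sample was marked when its gap to the nearest other sample took an unusually large share of the range of its genotype (Dixon's criterion). Chance marks about 1 in 20 groups, and 11 of 108 gene and genotype groups were marked. PIK3CA mutant replicate 4 was high in Slc2a3 (1.57 CPM, others up to 0.288), Aldoa (3080.5 CPM, others up to 2485) and Eno2 (20.9 CPM, others up to 6.96). PIK3CA mutant replicate 1 was low in the lactate carrier Slc16a1 (86.6 CPM, others from 98.7), and PIK3CA mutant replicate 3 was high in H6pd (143 CPM, others up to 93.8). HER2 mutant replicate 4 was low in Aldoa (925 CPM, others from 2098), replicate 2 high in Pdk4 (97.2 CPM, others up to 12.5) and replicate 1 high in Pgls (98.1 CPM, others up to 84.1). Double mutant replicate 1 was low in Hk1 (358 CPM, others from 429) and high in Ldhb (47.5 CPM, others up to 23.5), and double mutant replicate 3 was high in Pfkm (58.8 CPM, others up to 51.0). For Pdk4 and Pgls, which were called with the HER2 mutant, the report gives the fits without these samples: without HER2 mutant replicate 2 the Pdk4 difference from the PIK3CA mutant was 2.66 in place of 5.05 and that of the double from the HER2 mutant -3.78 in place of -6.16 (log2).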

How the results depend on the processing

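No call reversed in any setting. Of 36 calls, DESeq2 and median-of-ratios scaling kept 36, limma 35, the GC and length offset 33, upper-quartile scaling 33, no filter on low counts 30, the replicate block with GC and length offset 28, the replicate block 25 and fits of the compared genotypes alone 18; 5 were kept in all settings (Hk2 in the HER2 mutant and Ldha, Pdk4, Slc2a3 and Tkt in the double mutant, all against WT). Numbers of called entries moved by over 1.5 times as follows. PIK3CA mutant against WT (6): 20 with only these genotypes, 12 with DESeq2, and 0 to 6 with 1 library left out. HER2 mutant against WT (8): 1 with only these genotypes, 1 to 8 with 1 library left out. Double mutant against WT (15): 8 without double mutant replicates 2 and 3, 4 to 16 with 1 library left out. Double against HER2 mutant (3): 1 with the replicate block, 1 with the block and GC and length offset, 0 with only these genotypes, 5 without double mutant replicates 2 and 3, 2 to 4 with 1 library left out. Double against PIK3CA mutant (1): 0 with the replicate block, alone or with the offset, 2 with only these genotypes, 3 with DESeq2, 0 without replicates 2 and 3, 0 to 1 with 1 library left out. HER2 against PIK3CA mutant (3): 0 with the replicate block, alone or with the offset, 1 with only these genotypes, 0 to 4 with 1 library left out. Interaction (0): 2 with no filter, 5 with DESeq2, 2 with limma, 7 without double mutant replicates 2 and 3, 0 to 2 with 1 library left out. The cause of these moves was not tested, except that fits of fewer samples have fewer residual degrees of freedom. No label links samples of equal replicate number, and whether they were paired was not tested. Between double and HER2 mutants the mean correlation of same-numbered samples' deviations was 0.157 (lowest 0.0711), against -0.041 for other pairs. There, 4 of 8 samples correlated best with their own number. In the other comparisons the same-number mean was -0.052 to 0.043. Depth limited only Slc2a3, at 0 to 6 counts per double mutant sample, and Pdk4, at as few as 4 counts; all other entries had higher counts in every sample.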

Other observations

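Genes around sugar import and lactose synthesis moved in part with genotype. Slc5a1, a sodium-coupled glucose carrier, rose by 1.53 in the PIK3CA mutant against WT (log2, SE 0.36, edgeR adjusted p 0.0202) and was lower by 1.49 in the HER2 than in the PIK3CA mutant (SE 0.32, 0.0177). Slc2a4, the insulin-responsive carrier GLUT4, was at 6.89 to 15.1 CPM in the PIK3CA mutant, 1.00 to 5.26 CPM in the HER2 mutant and 7.76 to 19.4 CPM in the double mutant. The HER2 mutant was lower than the PIK3CA mutant (log2 -2.25, SE 0.45, edgeR adjusted p 0.012), and the double mutant higher than the HER2 mutant (2.35, SE 0.44, 0.0123). Galk1, galactokinase, rose in the HER2 mutant against WT (0.95, SE 0.22, edgeR adjusted p 0.0143). With 1 library left out in turn, both Slc2a4 differences were kept in each fit. The rise of Slc5a1 was lost in 3 of 7 fits (adjusted p up to 0.142), its other difference without PIK3CA mutant replicate 1 (0.0526), and the Galk1 call without WT replicate 1 or 3 (up to 0.0845). Summed levels of 6 milk genes were 3297 to 5542 CPM in WT and 6220 to 48962 CPM in the mutants. Csn3, a casein, alone averaged 4184 CPM in WT and 10976 CPM in the PIK3CA mutant. Against WT, edgeR called 0, 5 and 3 of the 6 as higher in the PIK3CA, HER2 and double mutants, and 0 as lower. Of all genes, 1.49, 4.75 and 5.03% were higher. Lalba, the milk gene also on the lactose list, had the lowest change of the 6 in the PIK3CA and double mutants (log2 -3.22 and -1.50), with no call.

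Among partners of Hif1a, Epas1, which encodes the second oxygen-regulated subunit, was lower in the HER2 than in the PIK3CA mutant (log2 -0.97, SE 0.23, edgeR adjusted p 0.0294). Arnt2, a dimerisation partner, was at 0.868 to 1.34 CPM in the PIK3CA mutant, 1.20 to 83.9 CPM in the HER2 mutant and 0.294 to 4.63 CPM in the double mutant, and the HER2 mutant was higher than the PIK3CA mutant (4.98, SE 1.09, 0.0188) and than the double mutant (double against HER2 -3.85, SE 0.94, 0.0437). Mlxip, which encodes a glucose-sensing transcription factor, was lower in the double than in the HER2 mutant (-0.73, SE 0.13, 0.00908), which was kept in all 9 fits with 1 library left out. The Epas1 call was kept in 1 of 8 such fits (adjusted p up to 0.0825). The first Arnt2 difference was lost without any 1 PIK3CA mutant sample (up to 0.0694), and the second in 7 of 9 fits (up to 0.102) and without double mutant replicates 2 and 3 (-3.28, 0.0877).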
